A study of Mus musculus with 10 samples.

Results

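The genes described here encode receptors for Wnt proteins: 7 Frizzled genes (Fzd1, Fzd2, Fzd3, Fzd4, Fzd6, Fzd7 and Fzd8) and 3 genes of the LDL receptor-related family (Lrp4, Lrp5 and Lrp6). They were taken by symbol from the array annotation, each through the probe set with the highest mean over all arrays, and all 10 were found among the 18193 genes with a probe set of 1 symbol. The 10 genes have 25 probe sets, and the 15 beside the main ones served as a check. The tissue was lower incisor dental mesenchyme of wild-type C57BL/6J mice at postnatal day 60. In the denervated group (n = 5 arrays) the inferior alveolar nerve, which carries sensation from the lower teeth, had been cut out on that side 2 weeks earlier. The contralateral group (n = 5 arrays) is the other incisor of operated mice, so that both groups share the operation on 1 side, and no sham-operated or unoperated mice are among the samples. Arrays of equal number are treated as the 2 incisors of 1 mouse. The study asked which genes of the mesenchyme may depend on what the nerve supplies.

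Wnt proteins bind the cysteine-rich outer domain of a Frizzled receptor, which spans the membrane several times and passes the signal to Dishevelled inside the cell. Where Lrp5 or Lrp6 joins the complex, the kinase complex that destroys beta-catenin is held back, and beta-catenin enters the nucleus to act with TCF and LEF factors. Frizzled receptors without these coreceptors can instead orient cells within a sheet or guide axons. In teeth, Wnt signalling is known for its part in initiating and shaping the tooth germ, and in odontoblasts, the cells that lay down dentin.

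Levels are the authors' deposited log2 intensities, with array medians between 1.48 and 1.54. No detection calls were used, 40.7% of the genes had a mean below 2, and such values cannot be told from background. Of the receptor genes 8 had a mean of at least 4. Fzd4 and Lrp5 lay below it, with means of 3.17 and 2.22 over the 10 arrays. Markers of odontoblasts were abundant in every array, with a summed intensity over 11 genes of 19993 to 29357 in denervated and 26565 to 28446 in contralateral incisors. Enamel-forming epithelium was also represented in these mesenchyme samples: its 16 markers summed to between 5028 and 25389 in denervated and between 22890 and 26251 in contralateral incisors, and denervated array 3 was the low one. The arrays measure whole tissue, in which fewer cells of a type and less RNA per cell cannot be told apart.

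Fzd3 stood apart among the receptors. Its 5 denervated values all lay below its 5 contralateral values, a fold of 0.810 (95% confidence interval 0.726 to 0.904). Fzd1, Fzd2, Fzd8 and Lrp5 had higher means in the denervated incisors, through mice 2 and 3 above all. Fzd7, Lrp4 and Lrp6 differed by at most 0.02 log2 units. With p-values from limma adjusted over the 18193 genes by Benjamini-Hochberg, 0 of 10 receptor genes passed the threshold of 0.05 (adjusted p from 0.790 to 0.981), and 0.00% of all genes did. At an unadjusted p under 0.05 in limma there was 1 receptor gene, Fzd3, against 6.21% of all genes.

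With the mouse as a block in limma, 0 of 10 passed the adjusted threshold as well (adjusted p from 0.399 to 0.952), against 0.00% of all genes. There Fzd3, Fzd8, Fzd2 and Fzd1 had an unadjusted p under 0.05, 4 of 10, against 9.92% of all genes. Of the 10 genes 5 had the higher mean in the denervated incisors, against 55.8% of all genes, and their median difference was -0.0032 against 0.02 over all genes. Their median absolute difference was 0.21, against 0.08 over all genes. It was 0.09 over the genes with a mean of at least 4, a set that excludes 2 of the receptors, Fzd4 and Lrp5. Fzd2 was higher in each of the 5 mice, 1 of 10 against 6.58% of all genes, and Fzd3 and Fzd4 lower in each, 2 of 10 against 3.80%.

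**Figure D1:**
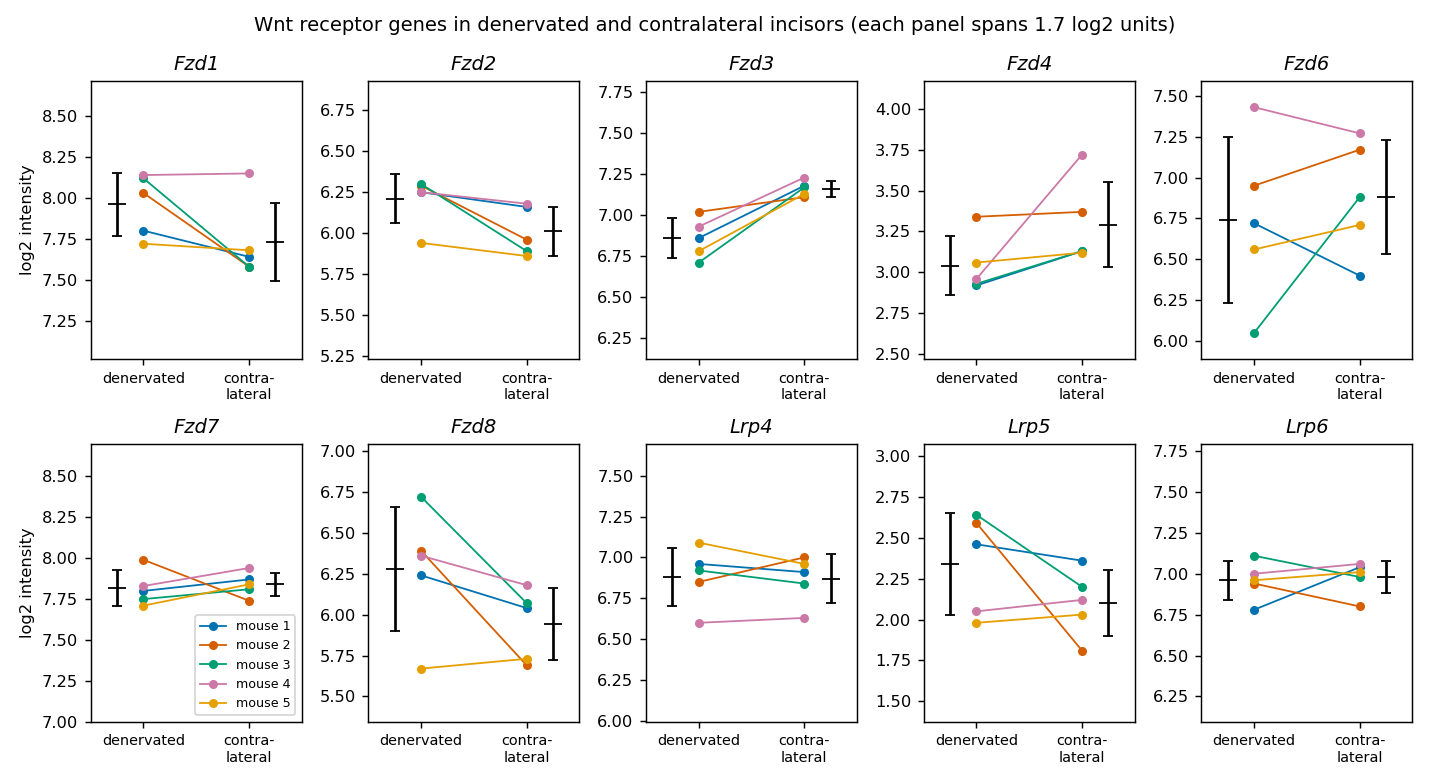
Log2 intensity of each receptor gene in the denervated (left) and contralateral (right) incisors. Each point is an array, lines join the 2 incisors of a mouse, and the black bars beside them give the mean and SD of 5 arrays. All 5 Fzd3 lines run from a lower denervated to a higher contralateral value, while the lines of Fzd6 cross.

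Promoter sequence is shown for a pair of close relatives within the family: Fzd1, whose 10 array values spanned 0.56 log2 units, and Fzd7, whose values spanned 0.28, the narrowest such span of the 10 genes. Each is the RefSeq entry of GRCm38.p6, from 250 bases before to 50 bases after the start of the gene, written 5′ to 3′ along the gene. Fzd1 lies on the minus strand at chr5:4758167-4758466 and Fzd7 on the plus strand at chr1:59481897-59482196. Entries on 1 chromosome were not read for the receptor genes. Of the 10 genes 3 had an entry among those read, the other being Fzd4. Capitals mark, on either strand, 3 motifs. The first is the TCF/LEF core, CTTTGA. Another is the GC box, GGGCGG, whose matches can overlap each other. The last is the TATA box, TATAAA.
Fzd1: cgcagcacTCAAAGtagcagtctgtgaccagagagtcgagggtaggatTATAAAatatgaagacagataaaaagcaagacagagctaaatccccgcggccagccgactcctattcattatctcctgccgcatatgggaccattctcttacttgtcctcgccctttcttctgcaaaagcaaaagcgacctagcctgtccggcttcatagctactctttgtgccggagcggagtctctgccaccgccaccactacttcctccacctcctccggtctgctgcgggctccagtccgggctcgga
Fzd7: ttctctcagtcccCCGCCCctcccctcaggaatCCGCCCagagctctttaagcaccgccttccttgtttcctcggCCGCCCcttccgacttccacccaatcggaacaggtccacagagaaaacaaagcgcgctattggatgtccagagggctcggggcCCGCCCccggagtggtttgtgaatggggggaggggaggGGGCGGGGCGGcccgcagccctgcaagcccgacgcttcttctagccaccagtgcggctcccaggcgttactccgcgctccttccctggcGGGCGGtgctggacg
Fzd1 holds 1 TCF/LEF core, 1 TATA box and 0 GC boxes, with 54.0% G and C. Fzd7 holds 7 GC boxes and neither of the other motifs, with 66.7% G and C. Among 32851 promoters of the same length, 16.0% hold the TCF/LEF core, 35.7% the GC box and 13.6% the TATA box, and the median G and C content was 52.7%. A match is a description of the letters, not a site of binding.

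Fzd1, Fzd2 and Fzd7 form the subfamily that includes widely expressed receptors for canonical Wnt signals. Fzd1 had log2 values of 7.80, 8.03, 8.12, 8.14 and 7.72 in the denervated incisors of mice 1 to 5, against 7.64, 7.58, 7.58, 8.15 and 7.68 in the contralateral ones. The groups overlapped through mouse 4, whose contralateral value was the highest of all 10. The difference was 0.23 ± 0.13 (SE; 95% confidence interval -0.05 to 0.51), limma's adjusted p was 0.791 and an exact permutation test over the 10 arrays, two-sided like all those below, gave p = 0.0952. Without contralateral array 4 it was 0.34. Its other probe set lay near the low end, at 1.20 on average, and differed by 0.21, higher in 5 of 5 mice.

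Fzd2 had 6.25, 6.29, 6.30, 6.25 and 5.94 in the denervated incisors, against 6.16, 5.96, 5.89, 6.18 and 5.86 in the contralateral ones. It was higher in each mouse, but by only 0.07 or 0.08 in mice 1, 4 and 5, and the groups overlapped through mouse 5, which was low on both sides. The difference was 0.19 ± 0.10 (SE), limma's adjusted p 0.790 and the exact permutation p 0.0635. The other 2 probe sets also had higher means, by 0.15 and 0.25, but they were higher in 2 and 3 of the 5 mice. The main probe set carries the suffix that the array maker gives to probes matching several transcripts.

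Fzd7 was the steadiest of the family. It ranged from 7.71 to 7.99 in the denervated and from 7.74 to 7.94 in the contralateral incisors, a whole range of 0.28. The difference was -0.02 ± 0.07 (SE), a fold of 0.984 (95% confidence interval 0.883 to 1.10), with limma's adjusted p of 0.954.

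Fzd8, known as a receptor close in sequence to Fzd5, had 6.24, 6.39, 6.72, 6.36 and 5.67 in the denervated incisors, against 6.04, 5.69, 6.07, 6.18 and 5.73 in the contralateral ones. The mean was higher in the denervated incisors, but the lowest of all 10 values was also a denervated one, that of mouse 5. The difference was 0.33 ± 0.17 (SE; 95% confidence interval -0.05 to 0.72), limma's adjusted p 0.791 and the exact permutation p 0.135. A second probe set differed by 0.31, higher in 5 of 5 mice. The difference was 0.22 without denervated array 3 and 0.49 without denervated array 5. Fzd5, outside the 10 genes, had 6.59 ± 0.17 in denervated and 6.90 ± 0.25 in contralateral incisors (SD, n = 5), a difference of -0.32 with limma's adjusted p of 0.790.

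Fzd3 and Fzd6 are the receptors of planar cell polarity. In mice Fzd3 is required for the growth and guidance of many axon tracts, and Fzd6 for the orientation of hair follicles. Fzd3 had 6.86, 7.02, 6.71, 6.93 and 6.78 in the denervated incisors of mice 1 to 5, against 7.18, 7.11, 7.17, 7.23 and 7.13 in the contralateral ones. The groups did not overlap, the highest denervated and the lowest contralateral value being those of mouse 2, 0.08 apart. Over all genes 0.423% had every denervated value below every contralateral one.

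The Fzd3 difference was -0.30 ± 0.07 (SE; 95% confidence interval -0.46 to -0.15), and the 5 mice differed by -0.32, -0.08, -0.46, -0.30 and -0.35. Its unadjusted p in limma was 0.00137, the 26th smallest of the 18193 genes, and the adjusted p 0.790. Of all genes 0.143% had a p this small or smaller, about the share that chance alone gives. Because the groups did not overlap, the exact permutation of the arrays gave p = 0.00794, the smallest that 10 arrays allow. That value restates the lack of overlap and leaves the pairing of the arrays out. Exact sign flips of the 5 mice gave p = 0.0625, again the smallest possible, since all 5 were lower. The difference was close to this size wherever arrays were left out: between -0.35 and -0.27 without any single array, and -0.32 without mice 2 and 3.

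The 6 probe sets of Fzd3 did not all give the same picture, but 5 of 6 had the lower mean in the denervated incisors. The second one, at 4.47 on average, had 4.44, 4.07, 4.46, 4.12 and 4.16 in the denervated incisors, against 4.88, 4.86, 4.84, 4.35 and 4.49 in the contralateral ones. It was lower in 5 of 5 mice, by -0.43 on average, with overlapping groups and an exact permutation p of 0.0317. Probe sets 3 and 4, at 3.73 and 3.04 on average, differed by -0.14 and -0.25 and were lower in 4 of 5 mice each. The last pair lay below 2, where no level can be read, and differed by -0.05 and 0.03.

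**Figure D2:**
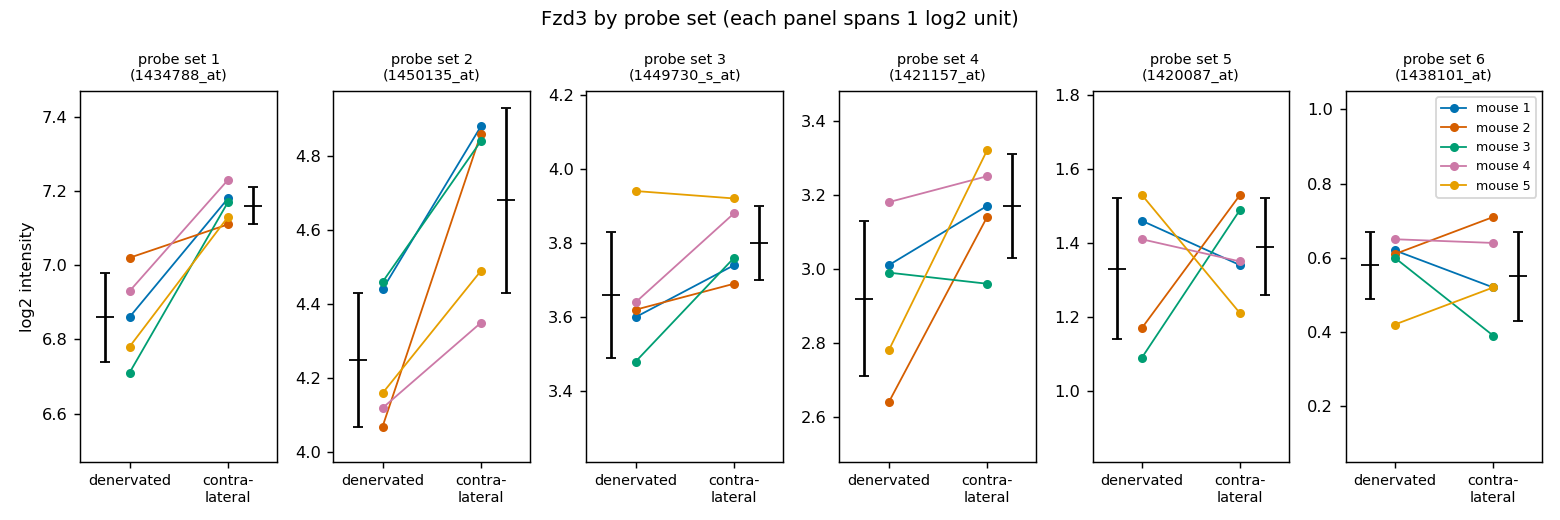
Log2 intensity of the 6 Fzd3 probe sets, ordered by mean, in the denervated (left) and contralateral (right) incisors. Points are arrays, lines join the incisors of a mouse and black bars give the mean and SD of 5 arrays. The first 2 probe sets are lower in the denervated incisor of every mouse, and the last pair, below 2, shows no shared direction.

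Fzd6 varied most between arrays, with a whole range of 1.37. It had 6.72, 6.95, 6.05, 7.43 and 6.56 in the denervated incisors, against 6.40, 7.17, 6.88, 7.27 and 6.71 in the contralateral ones. Both the highest and the lowest value were denervated ones, those of mice 4 and 3. The difference was -0.14 ± 0.24 (SE; 95% confidence interval -0.67 to 0.38), limma's adjusted p 0.911 and the exact permutation p 0.603. Mouse 3 alone differed by -0.83, and without denervated array 3 the difference was 0.03. That array was also the one low in epithelial markers. The epithelial score (its markers' log2 values, each centred on its gene mean, then averaged) was -2.24 in denervated array 3, between 0.13 and 0.44 in the other denervated and between -0.02 and 0.55 in the contralateral arrays. Of its 16 markers 15 had a lower mean in the denervated incisors, against 44.2% of all genes, and 0 had a mean below 2. Their part in the Fzd6 value was not tested.

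Fzd4 pairs with Lrp5 and the tetraspanin Tspan12 to receive norrin, a ligand of retinal vessels that is no Wnt protein. It had 2.92, 3.34, 2.93, 2.96 and 3.06 in the denervated incisors, against 3.13, 3.37, 3.13, 3.72 and 3.12 in the contralateral ones. Each mouse was lower on the denervated side, by between -0.76 in mouse 4 and -0.02 in mouse 2, and the groups overlapped through the denervated value of mouse 2. The difference was -0.25 ± 0.13 (SE; 95% confidence interval -0.54 to 0.03), limma's adjusted p 0.791 and the exact permutation p 0.127; without contralateral array 4 it was -0.15. The other 2 probe sets, at 2.04 and 0.81, differed by -0.17 and -0.05. They were lower in only 3 and 2 of the 5 mice, and the one at 0.81 lay where no level can be read. The norrin gene Ndp lay below 2, at 1.24 ± 0.17 in denervated and 1.31 ± 0.15 in contralateral incisors (SD, n = 5). Tspan12 had 4.77 ± 0.38 and 4.74 ± 0.08, a difference of 0.02 (limma's adjusted p 0.981).

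Lrp5 and Lrp6 are the coreceptors of canonical Wnt signalling, and Lrp5 is known for its control of bone mass. Lrp5 was measured by 1 probe set of low level. It had 2.46, 2.59, 2.64, 2.05 and 1.98 in the denervated incisors, against 2.36, 1.81, 2.20, 2.12 and 2.03 in the contralateral ones. Denervated mice 1 to 3 were the 3 highest values, and mice 4 and 5 hardly differed between sides. The difference was 0.24 ± 0.15 (SE; 95% confidence interval -0.09 to 0.57), with limma's adjusted p of 0.804 and an exact permutation p of 0.183.

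Lrp6 had 6.78, 6.94, 7.11, 7.0 and 6.96 in the denervated incisors, against 7.04, 6.80, 6.98, 7.06 and 7.01 in the contralateral ones. The groups overlapped over nearly their whole ranges, and the fold was 0.985 (95% confidence interval 0.873 to 1.11; limma's adjusted p 0.958). A second probe set differed by 0.03.

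Lrp4 is the receptor that binds agrin at the neuromuscular junction. It also binds the secreted inhibitors sclerostin and Sostdc1, and in mice its loss alters tooth number and bone. It had 6.96, 6.85, 6.92, 6.60 and 7.09 in the denervated incisors, against 6.91, 7.0, 6.84, 6.63 and 6.96 in the contralateral ones. Mouse 4 was low on both sides, so that mice differed from each other more than the sides did. The fold was 1.01 (95% confidence interval 0.865 to 1.18; limma's adjusted p 0.981). On the log2 scale the difference was 0.02, and -0.08 with each array centred on its median, where the median of all genes was -0.08 as well. Agrn, the agrin gene, had 8.56 ± 0.14 in denervated and 8.49 ± 0.09 in contralateral incisors (SD, n = 5), while Musk, the kinase partner of Lrp4 in muscle, lay below 2 in both. Sostdc1 had 8.51 ± 0.16 and 8.52 ± 0.09, and the sclerostin gene Sost lay below 2.

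**Figure D3:**
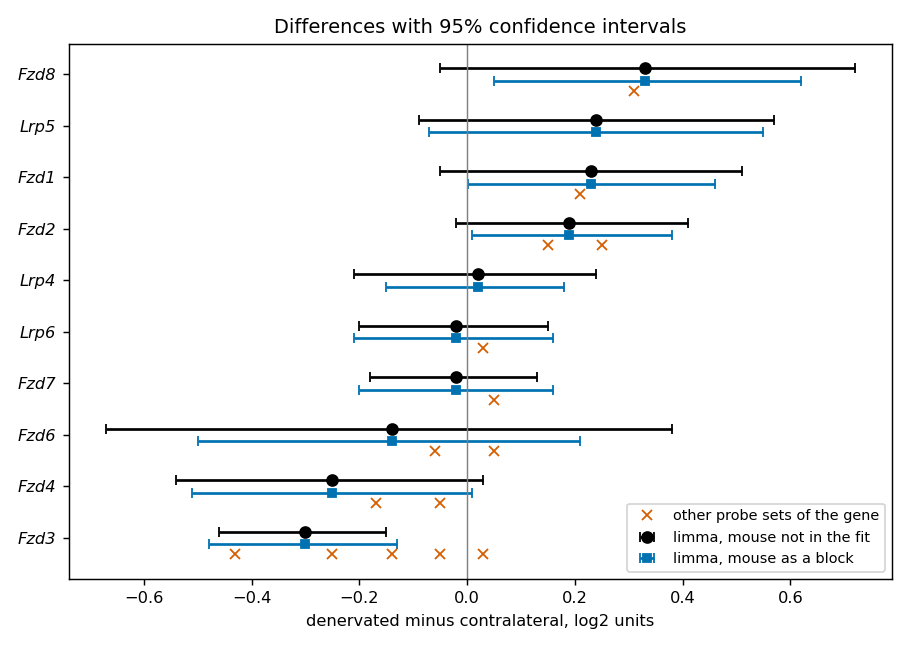
Differences, denervated minus contralateral, in log2 units with 95% confidence intervals from limma without (black) and with (blue) the mouse as a block; crosses are the other probe sets of a gene. The Fzd3 interval, -0.46 to -0.15 without the block, is the only one of the 10 black intervals that does not reach 0.

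In their main probe sets Fzd1, Fzd2, Fzd8 and Lrp5 shared a pattern over the mice. Each was higher by over 0.3 in the denervated incisors of mice 2 and 3, and by less than in either of these in mice 1, 4 and 5. This grouping was chosen after the values were seen, and 9.25% of all genes have the same pattern, so it is given as a description. In mouse 2 they differed by 0.45, 0.33, 0.70 and 0.78, and in mouse 3 by 0.54, 0.40, 0.64 and 0.44. In mice 1, 4 and 5 no difference exceeded 0.21. Without mice 2 and 3, an alternative chosen after the values were seen, their differences were 0.06, 0.08, 0.11 and -0.01. The second Fzd8 probe set, at 4.96 on average, did not share the pattern. Its differences in mice 1 to 5 were 0.53, 0.21, 0.34, 0.12 and 0.35. The other 2 Fzd2 probe sets did share it, with 0.64 and 0.78 in mouse 2 and 0.36 and 0.74 in mouse 3. The second Fzd1 probe set lay below 2, and Lrp5 has only 1 probe set, of low level.

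Several cell type marker lists were highest in the same 2 denervated arrays. The pericyte and smooth muscle score differed by 1.00 in mouse 2 and 0.73 in mouse 3, while the other mice did not exceed 0.17. Of its 14 markers 13 had a higher mean, against 55.8% of all genes. Their summed intensity ran from 2378 to 4068 in denervated and from 2106 to 2314 in contralateral incisors. Des and Lmod1 lay below 2. The macrophage and monocyte score differed by 0.84 in mouse 2, 0.99 in mouse 3 and between 0.12 and 0.34 elsewhere. All 15 of its markers had a higher mean, with sums of 2232 to 4049 in denervated and 1951 to 2127 in contralateral incisors and 0 markers below 2.

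The endothelial score differed by 0.57 in mouse 2 and 0.58 in mouse 3, and the differences of the other mice were -0.14, -0.12 and -0.12. All 15 endothelial markers had a higher mean and 0 lay below 2, with sums of 420 to 757 in denervated and 465 to 605 in contralateral incisors. The Schwann cell score differed by 2.27 in mouse 2 and 0.74 in mouse 3, with 13 of 14 markers higher on average and sums of 271 to 1225 in denervated and 242 to 339 in contralateral incisors. Egr2, Mag, Pmp2, Pou3f1, S100b, Sox10 and Ugt8a lay below 2 on average. All 14 measured cell cycle genes were higher on average in denervated incisors, but their score was not highest in both of these arrays: it was 0.41 in denervated array 2 and -0.02 in denervated array 3. The difference of 0.74 in mouse 3 went with a low contralateral array 3, at -0.76. The part of these cell types and of dividing cells in the receptor values was not tested. Fzd3 did not follow the pattern: its difference was smallest in mouse 2 and largest in mouse 3, and it was -0.31 without the denervated arrays of these mice. In mouse 3 it was -0.46. The epithelial score differed by 0.10, -0.11, -2.22, 0.38 and -0.23 in mice 1 to 5. The part of any of these cell types in the Fzd3 values was not tested.

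**Figure D4:**
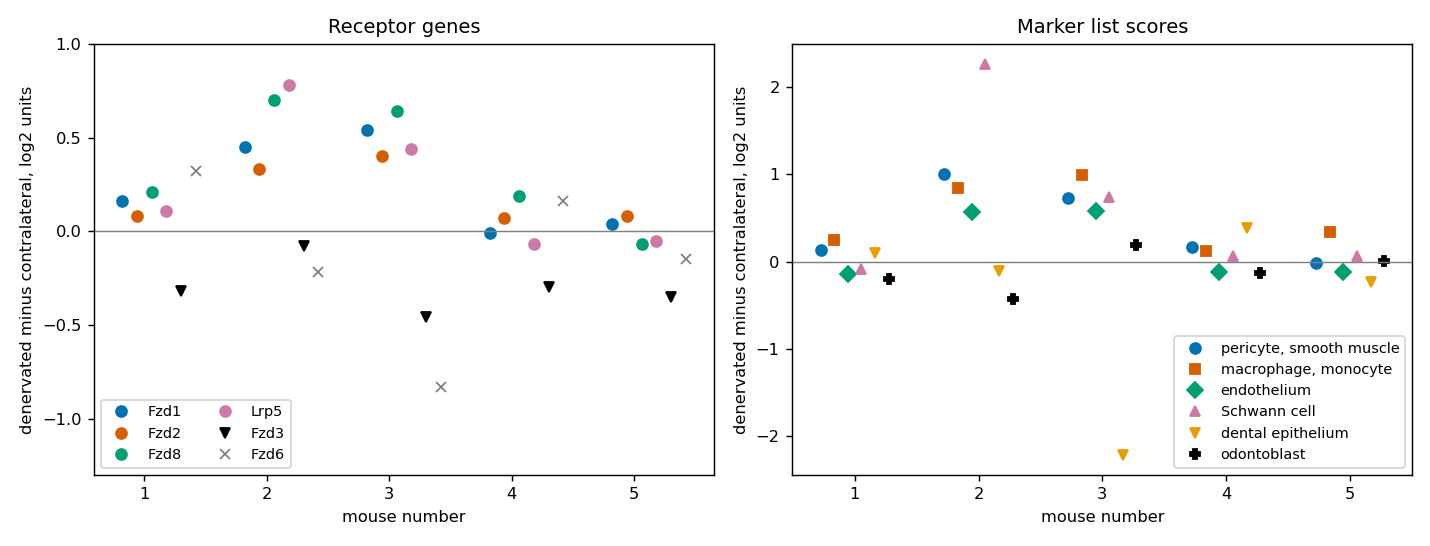
Differences within each mouse, denervated minus contralateral in log2 units, for 6 receptor genes (left) and for marker list scores (right, means of gene-centred log2 values). The main probe sets of Fzd1, Fzd2, Fzd8 and Lrp5 stand highest in mice 2 and 3, as do the pericyte, macrophage, endothelial and Schwann cell scores. Fzd6 and the epithelial score are lowest in mouse 3.

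The genes whose profile over the 10 arrays was most like that of the most variable receptors were taken from 7911 other genes with a mean of at least 4. For Fzd1 these were Gprasp1, which sorts G protein-coupled receptors, Tmem50b and Gnl3, with Pearson correlations of 0.98, 0.93 and 0.93. For Fzd8 they were Clec11a, a growth factor of bone-forming stroma, Lix1l and Hacd4, at 0.97, 0.96 and 0.96. For Fzd6 they were Klk8, a serine protease of epidermis and brain, Tirap and Kidins220, at 0.92, 0.90 and 0.90. These values are the highest of many and rest on 10 arrays from 5 mice that share a normalization, so they describe these arrays and carry no test. In Clec11a the denervated values were 8.35, 8.44, 8.69, 8.21 and 7.77, against 8.11, 7.71, 8.07, 8.25 and 7.66 in the contralateral incisors; mouse 3 was highest and mouse 5 lowest on the denervated side, as in Fzd8.

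The rest of the Wnt pathway was read from 11 lists with 143 measured genes outside the 10 receptors. None passed limma's test over all genes (0 of 143, smallest adjusted p 0.790 without and 0.318 with the mouse block). At an unadjusted p under 0.05 in limma there were 10 higher and 9 lower, 13.3% of the 143, against 6.21% of all genes, and their median difference was -0.0026. The 10 higher ones were Adgra2, Sdc1, Ror2, Rspo4, Prickle2, Wls, Pygo2, Tcf7l1, Tle2 and Dkk3. The 9 lower ones were Fzd5, Rnf43, Lgr4, Vldlr, Apc, Gsk3b, Wnt10a, Wnt6 and Dkk1. All of these had an adjusted p of 0.790 in limma, and those outside the fixed names are given because of their values. The lists were drawn up with earlier results of these data known.

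Other Wnt receptors had 8 of 11 members with a higher mean, against 55.8% of all genes, and a median of 0.07. Adgra2, an adhesion receptor that takes up Wnt7 signals in brain vessels, had 7.79 ± 0.22 in denervated and 7.28 ± 0.33 in contralateral incisors and was higher in 5 of 5 mice, by 0.50 on average. Sdc1, a heparan sulfate proteoglycan of the cell surface, differed by 0.24 and was also higher in 5 of 5 mice. Ror2, a tyrosine kinase receptor of Wnt5a, had 5.62 ± 0.10 in denervated and 5.41 ± 0.18 in contralateral incisors (SD, n = 5; limma's adjusted p 0.790). Its relative Ror1 had 5.65 ± 0.32 and 5.66 ± 0.18. Ryk, an inactive kinase that binds Wnt proteins in axon guidance, differed by -0.08 and Ptk7, a polarity coreceptor, by 0.15. The ligand gene Wnt5a had 8.33 ± 0.40 in denervated and 8.22 ± 0.17 in contralateral incisors. Of the further Frizzled genes Fzd9 and Fzd10 lay below 2 in both groups.

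Genes that set how long Frizzled and Lrp6 stay on the cell surface were divided. Znrf3 and Rnf43, ubiquitin ligases that remove Frizzled receptors, differed by -0.14 and -0.31. Rnf43 had 3.98 ± 0.11 in denervated and 4.29 ± 0.29 in contralateral incisors (SD, n = 5; limma's adjusted p 0.790). Lgr4, a receptor of the R-spondins that block these ligases, had 8.10 ± 0.17 and 8.36 ± 0.10 and was lower in 5 of 5 mice by -0.26 (limma's adjusted p 0.790). Lgr5 and Rspo3 lay below 2. The R-spondin genes Rspo1 and Rspo2 differed by 0.48 and 0.45, and Rspo1 by 1.74 and 2.41 in mice 2 and 3 but by -0.87 to -0.33 in the others. Rspo4 had the largest difference of this list, 0.65 (95% confidence interval 0.13 to 1.16), with 5.66 ± 0.40 in denervated and 5.01 ± 0.44 in contralateral incisors; it was higher in 4 of 5 mice, by 1.5 and 1.09 in mice 2 and 3. Kremen1, which removes Lrp6 together with Dickkopf proteins, differed by -0.14. Over the whole list 6 of 10 measured genes had a higher mean, against 55.8% of all genes.

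Downstream of the receptors, the 26 cytoplasmic genes had a median difference of -0.01. The Dishevelled genes Dvl1 and Dvl2 differed by 0.09 and 0.14, Dvl3 lay below 2, and Ctnnb1, which encodes beta-catenin, had 11.23 ± 0.06 in denervated and 11.28 ± 0.04 in contralateral incisors (SD, n = 5). Nuclear effectors had 7 of 12 members with a higher mean, against 55.8% of all genes, and a median of 0.10. Lef1 had 4.90 ± 0.30 and 4.90 ± 0.14. Response genes of beta-catenin had a lower mean in 11 of 15 members, against 44.2% of all genes, with a median of -0.04. Of the 15, 4 lay below 2 (Cdx1, Fgf20, Lgr5 and Sp5), and among the lower ones Lef1 and Nkd1 differed by only -0.0036 and -0.0027. The feedback gene Axin2 had 4.89 ± 0.21 in denervated and 4.85 ± 0.15 in contralateral incisors.

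Partners of Fzd3 and Fzd6 in planar polarity had a lower mean in 7 of 11 members, against 44.2% of all genes, with a median of -0.03. Celsr1, an adhesion receptor of polarized epithelia, differed by -0.44, and by -1.74 in mouse 3, the mouse whose denervated array was low in epithelial markers. Vangl2 and Prickle1, which act opposite Frizzled in the polarity complex, differed by -0.19 and -0.06, and by -0.71 and -0.52 in mouse 3. Prickle2 went the other way and was the 1 gene of this list at an unadjusted p under 0.05. It differed by 0.34, higher in 5 of 5 mice and by 0.50 in mouse 3. In that mouse Fzd6 differed by -0.83. The part of epithelial cells in these values was not tested.

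Wnt ligand genes had a lower mean in 14 of 19 members, against 44.2% of all genes, with a median of -0.04, and 10 lay below 2. Their score differed by -0.02, -0.28, -0.39, 0.17 and -0.22 in mice 1 to 5. It was lowest in mouse 3, whose denervated array was low in epithelial markers, and the part of these cells was not tested. Wnt10a, a ligand gene of tooth development, had 7.17 ± 0.32 in denervated and 7.51 ± 0.04 in contralateral incisors (SD, n = 5; limma's adjusted p 0.790) and was lower in 5 of 5 mice. Wnt6, chosen after the values were seen because it had the smallest unadjusted p of the 143 genes, had 7.18 ± 0.18 and 7.64 ± 0.12, lower in 5 of 5 mice by -0.45 ± 0.10 (SE; limma's adjusted p 0.790). Secreted inhibitors had a higher mean in 10 of 16 members, against 55.8% of all genes, with a median of 0.09. Dkk1, which blocks Lrp5 and Lrp6, differed by -0.36 and Sfrp1, which binds Wnt proteins, by 0.29. In the LDL receptor family 9 of 12 measured genes had a lower mean, against 44.2% of all genes, with a median of -0.05. Lrp1, a receptor that clears proteins from outside the cell, differed by 0.05.

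**Figure D5:**
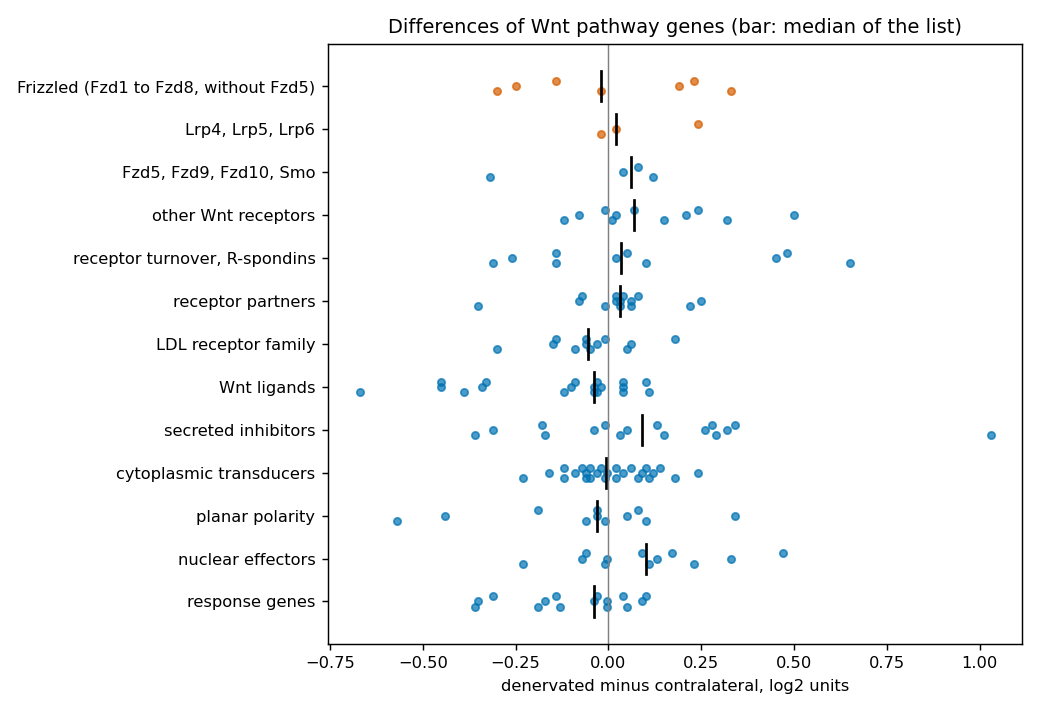
Differences, denervated minus contralateral in log2 units, of the 10 receptor genes (orange) and of the genes of 11 Wnt pathway lists (blue), 1 point a gene, with the list median as a bar. The list medians lie between -0.05 and 0.10, and Fzd3 and Fzd8 mark the ends of the Frizzled row.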

How the data were processed

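Total RNA of 10 incisor mesenchyme samples was measured on oligonucleotide arrays. The authors deposited log2 intensity values summarized per probe set by RMA, per the submitters' processing notes, with no version given; the log2 scale was read from the values, which were used unchanged. Which variant of RMA was run is not given in the sources used here, and differences between dim probe sets depend on that step. Of 45101 probe sets 64 controls were left out; 34945 of the rest name 1 gene symbol, 932 several and 9160 none. Through Entrez identifiers 34741 matched a RefSeq table, and 0 symbols had to be changed. Precision is limited by the 10 arrays, and the standard error of a difference was 0.10 at the median gene. P-values from limma set each difference against the spread between these samples. Without the mouse block, that spread holds differences between mice as well. No sham-operated mice were analysed here, so loss of the nerve and the operation cannot be told apart.

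Denervated arrays were compared with contralateral ones by limma 3.58.1 (lmFit, eBayes) in R 4.3.3 over 18193 genes, with Benjamini-Hochberg adjustment and a threshold of 0.05; other probe sets were read from a fit over all 34945. The fit was tested on simulated data drawn independently per gene and array. These held no mouse effect, so that test does not cover the pairing described below. Differences are denervated minus contralateral. The deviation of each array from its group mean was correlated across genes: the 5 pairs of equal number gave 0.18 to 0.57 and the 20 other pairs -0.41 to 0.22, so the numbers were taken to pair the samples; the design text names 5 mice without saying that a number marks a mouse. Single genes were also tested by exact permutation of the 10 arrays (252 arrangements), which leaves the pairing out.

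The members, lists and named genes were chosen with earlier results of these data known. All 10 receptors are named, with fixed pathway genes and, for the 3 receptors with the largest SD and a mean of at least 4, the 3 most correlated genes. Some genes of the pathway and marker lists were not analysed here and are not reported. Alternatives covered the mouse block, probe set choice, a filter on dim genes, normalization, the variance prior, array weights and arrays left out.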

Additional observations from a re-analysis of the deposited data

Results flagged for a closer look

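A sample far from the other 4 of its group was looked for in 156 groups of 5 arrays (receptor and pathway genes, other receptor probe sets and list scores), where chance alone gives about 7.8, and 13 were found. Among the receptors, Fzd1 was highest in contralateral array 4, at 8.15 against 7.68 in the next array. Fzd2 was lowest in denervated array 5, at 5.94 against 6.25. The second Fzd6 probe set was highest in denervated array 4, at 2.91 against 1.97, the array in which the main Fzd6 probe set was also highest. The sixth Fzd3 probe set was lowest in denervated array 5, at 0.42, below the level that can be read.

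Denervated array 3 was lowest in Celsr1, at 5.64 against 7.24, and in the epithelial marker score, at -2.24 against 0.13, and it was highest in Fzd10, at 2.16 against 1.90. Wnt5a was lowest in denervated array 2, at 7.63 against 8.39. In contralateral array 3 Lgr5 was highest at 0.80, Lrp1 highest at 8.42 and the score of beta-catenin response genes lowest at -0.12. Sostdc1 was lowest in contralateral array 4, at 8.36 against 8.54, and the Schwann cell score highest in contralateral array 1, at -0.09 against -0.32.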

How the results depend on the processing

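In all 22 alternatives 0 genes, 0 receptor genes and 0 of the listed pathway genes passed the adjusted threshold, and the median difference of the receptors stayed between -0.10 and 0.04. On average Fzd1, Fzd2, Fzd4 and Fzd8 kept their direction in every alternative and probe set that held them. Fzd3 did so in all but its sixth probe set (0.03). The second Fzd1 probe set, the third of Fzd4 and the last pair of Fzd3 lay below 2, so their directions carry little weight. The filter on dim genes left out Fzd4 and Lrp5. Fzd6 was 0.03 without mouse 3, 0.02 without denervated arrays 2 and 3, 0.11 without mice 2 and 3 and 0.05 in its probe set 3. Fzd7 was 0.02 with the mean of its probe sets, and 0.05 both by the largest interquartile range and in its second probe set. Lrp4 was -0.01 with quantile normalization, -0.08 with arrays centred on the median and -0.0029 without mouse 3, and Lrp5 was -0.01 without mice 2 and 3. Lrp6 was 0.0043 with the mean of its probe sets, and 0.03 by the largest interquartile range and in its second probe set. Leaving out single arrays gave -0.32 to 0.03 for Fzd6, -0.07 to 0.0034 for Fzd7, -0.04 to 0.09 for Lrp4 and -0.07 to 0.02 for Lrp6. The cause was not tested. The mouse block moved the genes at an unadjusted p under 0.05 to 1805, against 1129 without it, and changed no adjusted call. The filter on dim genes gave 535 of 7919, and leaving out mouse 2, mouse 3 or both gave 715, 721 and 559; single arrays gave 793 to 1605. The smallest p with 5 mice is 0.0625 by sign flips, and values below 2 cannot be told from background.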
